A study of Rattus norvegicus with 6 samples.

Results

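NF-kB is a family of dimeric transcription factors that drives inflammatory, survival and epithelial defence genes, and 10 genes of its core circuit are described here. They are 4 genes for DNA-binding subunits (Nfkb1, Nfkb2, Rela and Relb), 3 for the IkB proteins that hold dimers in the cytoplasm (Nfkbia, Nfkbib and Nfkbie), 2 for ubiquitin regulators of the pathway (Tnfaip3 and Birc3) and Ikbkb, the kinase gene whose product marks IkB for destruction. The genes were chosen by symbol among 11778 symbols with a tested row, and all 10 were measured. Where a symbol had several rows, the row with the longest locus was taken, and among rows of equal locus the one with the higher mean level.

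RNA was sequenced from untreated RUCA-I cells, an epithelial line from an endometrial adenocarcinoma of the Lewis rat, grown close to confluence in medium with fetal calf serum. The 2 groups were 3 miR-203 knockout (KO) samples of genotype miR-203 -/-, each a separately made line, and 3 wild-type (WT) samples, each a batch of the unedited cells. Each gene row of the authors' table holds a single FPKM value for each group (a fragment count corrected for transcript length and library size), so a value here stands for 3 pooled samples, has no SD and no known read depth. The only test against the spread between samples is the authors' Cuffdiff test, and a gene was taken as called where its q, the p adjusted over all tested rows, was under 0.05. Because each KO sample is a separately made line and each WT sample a batch of unedited cells, effects of making a line and of genotype cannot be told apart.

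In resting cells NF-kB dimers are kept out of the nucleus by IkB proteins. Ligands such as TNF and IL-1 act through receptor adaptors and ubiquitin chains on the IKK complex, which phosphorylates IkB and releases the dimer. Nfkbia, Tnfaip3 and Birc3 are themselves induced by NF-kB, so their transcripts are often read as a record of its activity, and the first 2 of them end the response.

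The microRNA removed in the KO lines is printed first because it defines the comparison. The mature arms of rat miR-203 from RefSeq (GRCr8, chromosome 6, plus strand) are given 5′ to 3′ with the seed, bases 2 to 8, in capitals.

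rno-miR-203a-3p: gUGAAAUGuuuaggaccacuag
rno-miR-203a-5p: aGUGGUUCuuaacaguucaac

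Binding sites for NF-kB in the promoters of its own subunits and inhibitors are the textbook basis of the feedback loop. RefSeq promoters (windows of 300 bases around the annotated start) were found for 7 of the 10 genes, and Relb, Birc3 and Ikbkb were not matched. Searched on both strands for the kB consensus, 5 of the 7 held at least 1 match (Nfkb1, Nfkb2, Nfkbia, Nfkbie and Tnfaip3), against 4.18% of 33465 promoters of the same length. Rela and Nfkbib held none in this window. Promoters of the inhibitors Nfkbia and Tnfaip3 and the subunits Nfkb1 and Nfkb2 are printed as examples with a match. Part of the likeness among matches was fixed by searching for a single consensus. Capitals mark matches to the kB consensus in either orientation.

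Nfkbia, GRCr8 chr6:78597023-78597322, minus strand: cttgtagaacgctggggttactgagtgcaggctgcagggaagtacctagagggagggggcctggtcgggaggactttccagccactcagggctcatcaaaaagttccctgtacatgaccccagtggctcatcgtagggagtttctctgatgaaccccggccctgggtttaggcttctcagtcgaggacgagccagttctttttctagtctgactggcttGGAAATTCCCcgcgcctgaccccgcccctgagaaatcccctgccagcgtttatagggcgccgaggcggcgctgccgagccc
Tnfaip3, GRCr8 chr1:15543930-15544229, minus strand: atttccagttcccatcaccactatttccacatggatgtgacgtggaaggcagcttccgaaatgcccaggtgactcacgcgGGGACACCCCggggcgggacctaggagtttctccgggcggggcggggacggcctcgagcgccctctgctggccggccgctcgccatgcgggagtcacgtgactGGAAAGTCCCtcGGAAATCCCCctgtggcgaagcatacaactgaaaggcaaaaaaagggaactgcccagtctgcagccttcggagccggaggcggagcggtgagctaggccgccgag
Nfkb1, GRCr8 chr2:226805413-226805712, minus strand: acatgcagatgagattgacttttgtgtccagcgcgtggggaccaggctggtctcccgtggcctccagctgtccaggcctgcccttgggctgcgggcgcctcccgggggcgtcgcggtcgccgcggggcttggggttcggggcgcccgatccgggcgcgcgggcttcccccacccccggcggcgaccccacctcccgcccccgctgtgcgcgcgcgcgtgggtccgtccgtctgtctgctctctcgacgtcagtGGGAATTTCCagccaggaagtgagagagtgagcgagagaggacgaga
Nfkb2, GRCr8 chr1:255108124-255108423, plus strand: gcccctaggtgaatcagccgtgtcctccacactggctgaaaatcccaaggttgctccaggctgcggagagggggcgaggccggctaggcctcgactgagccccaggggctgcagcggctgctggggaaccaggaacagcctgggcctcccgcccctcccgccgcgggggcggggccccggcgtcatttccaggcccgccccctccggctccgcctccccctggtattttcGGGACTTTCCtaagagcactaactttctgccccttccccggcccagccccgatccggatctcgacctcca

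The Nfkbia match begins 31 bases before the annotated start and is, on the opposite strand, the same run of 10 letters as the match in the Nfkb1 promoter, which begins just after the start. Tnfaip3 held 3 matches, of which a pair begin 67 and 55 bases before the start. The first of that pair reads GGGACTTTCC on the opposite strand, the 10 letters that stand 20 bases before the start in Nfkb2. Nfkbie held GGGGGATTCC, 164 bases before its start. The GC box GGGCGG, in either orientation, occurred in 6 of the 7 promoters, all but Nfkbib, against 33.1% of all promoters, and it overlapped no kB match. The letters TATAA, in either orientation, occurred in Nfkbia alone of the 7, against 26.2% of all promoters. There they began after the annotated start and read TTATA on the printed strand. A match describes these letters and shows neither binding nor a role in the values that follow.

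None of the 10 genes was called between miR-203 KO and WT cells. In the authors' deposited table, 0 of 10 reached a Cuffdiff q under 0.05, where 1.05% of 26459 tested rows did. With q recomputed over rows of at least 1 FPKM (1.45% of rows called) or 5 FPKM (1.53%), the count was also 0. It could only stay 0 at q under 0.01 (0.661%) and at q under 0.05 with a fold of at least 1.5 (0.782%). At an unadjusted p under 0.05 there were 2 of 10 in the authors' deposited table, against 6% of tested rows, with 1 higher in KO cells (3.25% of rows) and 1 lower (2.75%). In the authors' deposited table these 2 were Nfkbia, 1.24-fold higher in KO cells, and Tnfaip3, 1.26-fold lower, both inhibitors of the pathway. Because bulk RNA was measured, fewer cells with a transcript and less transcript per cell cannot be told apart.

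**Figure D1:**
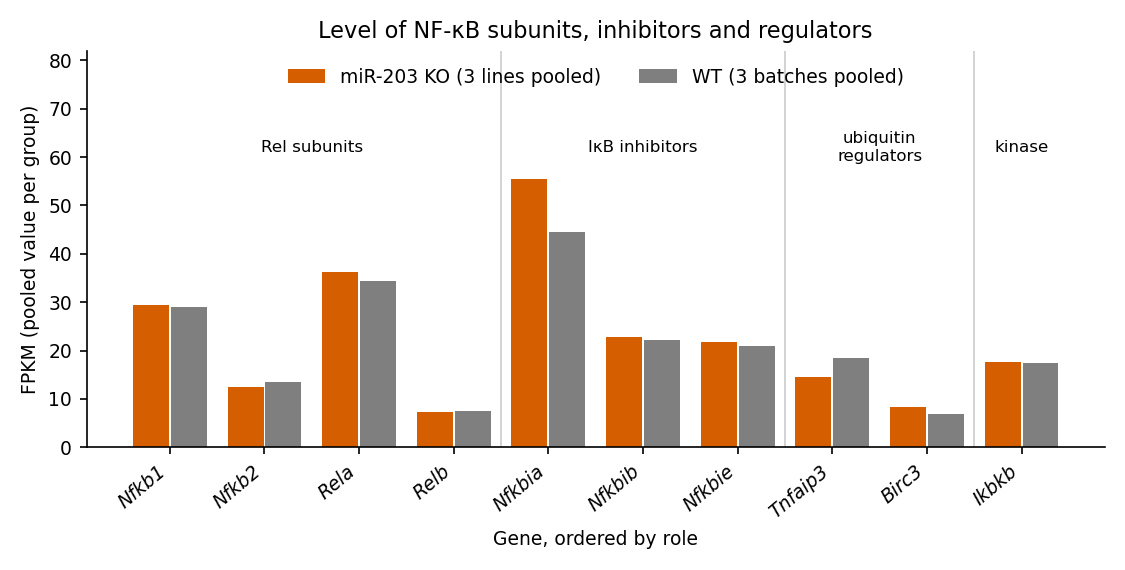
Pooled FPKM of the 10 genes, ordered by role, with miR-203 KO (orange) left of WT (grey) and no error bars since each bar is 1 value over 3 samples. The bars of the 4 subunits and of Nfkbib, Nfkbie and Ikbkb nearly match, while Nfkbia stands at 55.4 in KO against 44.6 in WT cells and Tnfaip3 at 14.6 in KO against 18.4 in WT cells.

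Nfkbia encodes IkBα, the fast-acting inhibitor that is resynthesised after NF-kB activation and returns dimers to the cytoplasm. It stood at 55.4 FPKM in KO cells and 44.6 FPKM in WT cells (rn6 chromosome 6, 76266061 to 76270592). Its log2 fold in the authors' deposited table was 0.31, with p = 0.0056 and q = 0.279 by Cuffdiff. Among the tested rows, 532 (2.01%) had a p as small or smaller. It was the highest of the 10 genes in both groups, above 90% of all tested rows in mean level.

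Tnfaip3 encodes A20, a ubiquitin-editing enzyme that shuts down signalling upstream of IKK. It stood at 14.6 FPKM in KO cells and 18.4 FPKM in WT cells (rn6 chromosome 1, 14401101 to 14416255). Its log2 fold in the authors' deposited table was −0.33, with p = 0.00575 and q = 0.285 by Cuffdiff. The difference was close in size to that of Nfkbia and ran the other way, so the level of Tnfaip3 relative to Nfkbia was 0.264 in KO cells and 0.413 in WT cells. Both genes lay just outside the central 90% of tested rows of similar level, whose 95th percentile was a log2 ratio of 0.27 near the level of Nfkbia and whose 5th percentile was −0.30 near that of Tnfaip3.

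Birc3 encodes cIAP2, a ubiquitin ligase recruited to TNF receptors and a target of NF-kB. Its main row stood at 8.29 FPKM in KO cells and 6.88 FPKM in WT cells (rn6 chromosome 8, 6048616 to 6076543). The log2 fold in the authors' deposited table was 0.27, with p = 0.0889 and q = 0.944 by Cuffdiff. The log2((KO + 1)/(WT + 1)) ratio of this row was 0.24, but it was 0.05 when the 8 rows of Birc3 were summed. Its neighbour Birc2, the related ligase cIAP1, stood at 6.44 FPKM in KO cells and 6.28 FPKM in WT cells.

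The remaining IkB genes showed values that were close between groups. Nfkbib, or IkBβ, stood at 22.7 FPKM in KO cells and 22.1 FPKM in WT cells (rn6 chromosome 1, 86937362 to 86948735). Nfkbie, or IkBε, stood at 21.7 FPKM in KO cells and 21.0 FPKM in WT cells (rn6 chromosome 9, 17827094 to 17835248). Both had q = 0.997 in the authors' deposited table. The FPKM ratio of Nfkbia to the sum of Nfkbib and Nfkbie was 1.25 in KO cells and 1.03 in WT cells. The 3 IkB genes summed to 99.9 FPKM in KO cells and 87.6 FPKM in WT cells.

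The subunit genes summed to 85.2 FPKM in KO cells and 84.2 FPKM in WT cells. Rela, the main transactivating subunit of the canonical pathway, stood at 36.2 FPKM in KO cells and 34.3 FPKM in WT cells (rn6 chromosome 1, 220992560 to 221003442). Nfkb1, which encodes the precursor of its usual partner, stood at 29.3 FPKM in KO cells and 28.9 FPKM in WT cells (rn6 chromosome 2, 240773517 to 240890379). The q of both was 0.997 in the authors' deposited table, with a log2 fold there of 0.08 for Rela and 0.02 for Nfkb1.

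Subunits of the non-canonical pathway, which answers to receptors such as the lymphotoxin β receptor, were lower in level than the canonical pair in both groups. Nfkb2, the precursor subunit of that branch, stood at 12.3 FPKM in KO cells and 13.4 FPKM in WT cells (rn6 chromosome 1, 266048611 to 266059647), with a log2 fold of −0.12 and q = 0.997 in the authors' deposited table. Relb, its partner, stood at 7.25 FPKM in KO cells and 7.54 FPKM in WT cells (rn6 chromosome 1, 80517081 to 80544945), with a log2 fold of −0.06 and q = 0.997 in the authors' deposited table. The FPKM ratio of Nfkb2 to Nfkb1 was 0.421 in KO cells and 0.463 in WT cells. That of Relb to Rela was 0.2 in KO cells and 0.22 in WT cells. Both canonical genes stood slightly above WT as deposited but below it when each group was divided by its sum of FPKM, and both non-canonical genes stood slightly below WT either way. The authors' test called none of these differences.

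Ikbkb encodes IKKβ, the kinase that phosphorylates IkB in the canonical branch. Its main row stood at 17.7 FPKM in KO cells and 17.5 FPKM in WT cells (rn6 chromosome 16, 74177246 to 74230811), with a log2 fold of 0.01 and q = 0.997 in the authors' deposited table. By the main rows as deposited it had the smallest difference of the 10, but summed over all its rows the log2 ratio was 0.15, and it was −0.14 when each group was divided by its sum of FPKM.

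Ordered by the level of the main rows in KO cells, Nfkbia was followed by Rela, Nfkb1, Nfkbib, Nfkbie, Ikbkb, Tnfaip3, Nfkb2, Birc3 and Relb. The order in WT cells was the same except that Ikbkb and Tnfaip3 changed places, as did Birc3 and Relb. By main rows, 6 of 10 genes thus kept their rank. With all rows of a symbol summed, Ikbkb stood above Nfkb1 and Birc3 above Relb in both groups, so neither change of places held. FPKM is scaled to transcript length, so levels of different genes can be set side by side, but with pooled values it cannot be said which neighbours in this order differ beyond the spread between samples. All 10 had a mean of at least 5 FPKM, between 7.4 and 50 FPKM.

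Over the 10 genes the ratios were centred close to those of all rows. They were taken as log2((KO + 1)/(WT + 1)), that is, after adding 1 FPKM to each value. The median was 0.03 over the 10 genes, against 0.02 over all tested rows and −0.01 over the 11294 rows that averaged 5 FPKM or more. The quartiles of those 11294 rows were −0.10 and 0.10, and 6 of the 10 genes were within 0.1 of 0. In KO cells 7 genes were higher and 3 were lower, but 5 of the 7 (Nfkb1, Rela, Nfkbib, Nfkbie and Ikbkb) turned lower when each group was divided by its sum of FPKM, a scaling that moved the median of the 11294 rows to −0.16. Nfkbia and Birc3 were higher and Tnfaip3, Nfkb2 and Relb lower under each scaling tried.

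**Figure D2:**
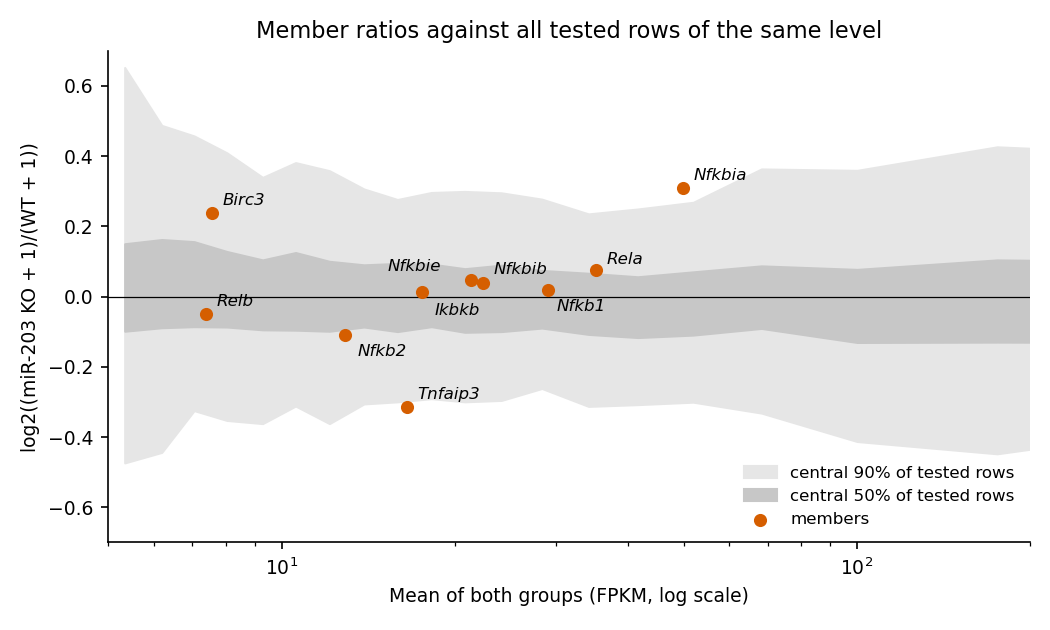
Ratio of miR-203 KO to WT, as log2((KO + 1)/(WT + 1)), against mean FPKM on a log axis for the 10 genes (orange points), over the bands that hold the central 50% and central 90% of tested rows that averaged 5 FPKM or more, in classes of level. Nfkbia (0.31) and Tnfaip3 (−0.31) lie just outside the wide band, Birc3 (0.24) inside it, and the other 7 in or next to the narrow band.

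For scale, among 6494 named rows with a mean between 7.4 and 50 FPKM, 94 were called in the authors' deposited table, and the smallest called change was a log2 ratio of 0.37 in either direction, at Slc7a1. Differences of the size seen for Nfkbia and Tnfaip3 were below that and were shared by many rows, since 8.9% of the 6494 rows had a ratio over 0.3 in size. The q values do not show that the levels of the 10 genes were equal in KO and WT cells.

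Further rows carried the symbols of Rela, Ikbkb and Birc3. The 10 symbols had 23 rows in all, of which 13 were not main rows, and 11 of these were listed with the same locus as the main row. None was called in the authors' deposited table, and the smallest p among them was 0.182. A further Rela row stood at 8.504 FPKM in KO cells and 5.21 FPKM in WT cells. Ikbkb had 3 further rows, at 9.62, 8.86 and 3.81 FPKM in KO cells and at 8.59, 6.02 and 3.76 FPKM in WT cells. The 7 further Birc3 rows were between 0.308 and 0.660 FPKM in KO cells and between 0.105 and 1.32 FPKM in WT cells, with differences in both directions. Summed over all rows of a symbol, the log2 ratio was 0.18 for Rela, 0.15 for Ikbkb and 0.05 for Birc3, against 0.08, 0.01 and 0.24 for the main rows, so the difference in Birc3 shrank, and those in Rela and Ikbkb grew, with the further rows. Rows listed with the same locus cannot be told apart by position, and how the authors' estimate divided reads among them is not given in the sources used here.

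**Figure D3:**
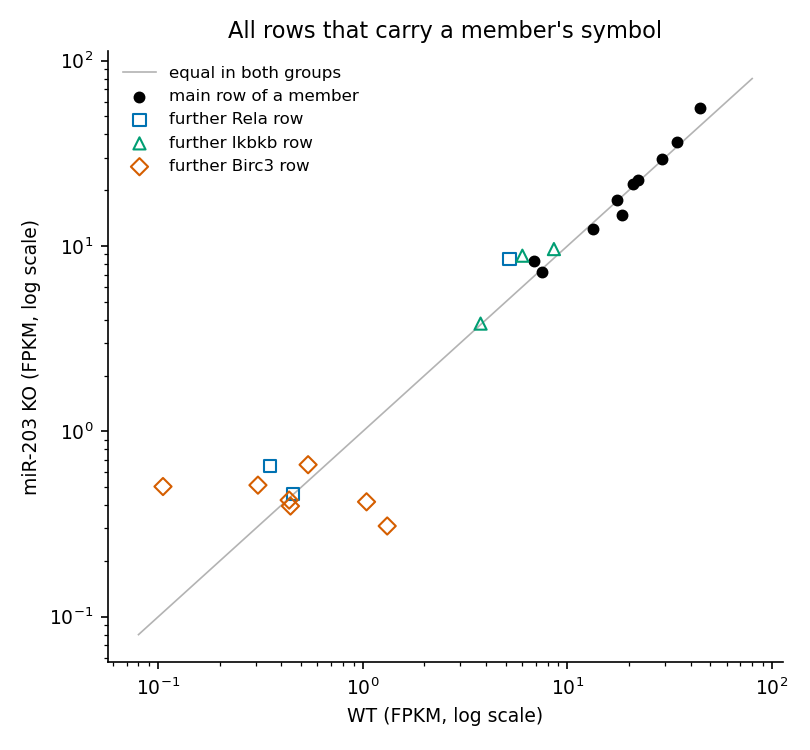
All 23 rows that carry a symbol of the 10 genes, with FPKM in miR-203 KO on the vertical and in WT on the horizontal log axis. Main rows (black) follow the line of equal values from 6.88 to 44.6 FPKM in WT, and the 7 further Birc3 rows (diamonds), at most 1.32 FPKM in WT, scatter to both sides of it.

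The surrounding pathway was read from 7 lists of 125 genes, of which 95 had a tested row. In the authors' deposited table, 2 of the 95 rose and 7 fell in KO cells, against 0.491% and 0.556% of all tested rows, and 86 did not pass. The 2 higher and 7 lower calls became 1 and 4 at q under 0.01, and 1 and 3 with a fold of at least 1.5, a setting added after seeing the data. With q recomputed over rows of at least 5 FPKM they were 2 and 5. All but 2 of the calls at q under 0.05 (Rbck1 and Il1r1) were in the list of NF-kB target genes. Earlier results of these data were known when the lists were made, so these counts are no independent evidence.

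Among ligands and receptors, Il1r1, the signalling receptor for IL-1, fell to 11.2 FPKM in KO cells, against 15.1 FPKM in WT cells (rn6 chromosome 9, 46996154 to 47038141). In the authors' deposited table that is 1.34-fold lower (Cuffdiff q = 0.0351). It was the only call of 11 receptor genes measured, where 1.05% of all tested rows were called. Tnfrsf1a, the main TNF receptor, stood at 21.1 FPKM in KO cells and 20.7 FPKM in WT cells, and Ltbr, the lymphotoxin β receptor, at 57.4 FPKM in KO cells and 59.8 FPKM in WT cells. Only 4 of 15 ligand genes had a tested row and none was called. Il1b stood at 2.48 FPKM in KO cells and 1.67 FPKM in WT cells. Il1rn, the secreted antagonist of the IL-1 receptor, stood at 44.1 FPKM in KO cells and 35.8 FPKM in WT cells, with p = 0.0093 and q = 0.378 in the authors' deposited table. Tnf and Il1a had no tested row under their symbols.

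Among adaptors and ubiquitin ligases, 1 of 22 genes rose, none fell and 21 did not pass, where 1.05% of all tested rows were called. Rbck1, which encodes HOIL-1 of the linear ubiquitin ligase complex, rose to 39.5 FPKM in KO cells, against 29.5 FPKM in WT cells (rn6 chromosome 3, 147792053 to 147809889). In the authors' deposited table that is 1.34-fold higher, with q = 0.0137. Its partners Rnf31 (8.08 FPKM in KO cells and 7.91 FPKM in WT cells) and Sharpin (6.16 FPKM in KO cells and 6.05 FPKM in WT cells) were not called. Ube2n, a conjugating enzyme for ubiquitin chains, stood at 17.6 FPKM in KO cells and 13.0 FPKM in WT cells, a ratio like that of Rbck1, with q = 0.997 in the authors' deposited table. Rbck1 lies on chromosome 3 beyond 120 Mb, where 82.7% of 364 rows that averaged 5 FPKM or more were higher in KO cells, against 47.1% of the rows elsewhere. The boundary of 120 Mb was a round figure set with an earlier result of these data known. The part of that region in the value of Rbck1 was not tested, and none of the 10 core genes lies on chromosome 3. Traf2 stood at 13.9 FPKM in KO cells and 12.3 FPKM in WT cells and Traf3 at 9.81 FPKM in KO cells and 11.5 FPKM in WT cells, both adaptors that restrain the non-canonical branch. Traf1 had only a row of 387 bp, at 0.480 FPKM in KO cells and 0.682 FPKM in WT cells.

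No gene of the IKK list was called among 11 measured, against 1.05% of all tested rows. Chuk, or IKKα, stood at 22.1 FPKM in KO cells and 23.2 FPKM in WT cells, and Ikbkg, the scaffold NEMO, at 10.8 FPKM in KO cells and 9.28 FPKM in WT cells. Map3k14, the NF-kB-inducing kinase of the non-canonical branch, stood at 8.06 FPKM in KO cells and 6.25 FPKM in WT cells, with p = 0.0072 and q = 0.325 in the authors' deposited table. It was the only one of the 11 with an unadjusted p under 0.05. Tab1, an adaptor of the kinase TAK1, stood furthest apart, at 0.0594 FPKM in KO cells and 1.18 FPKM in WT cells, but its q in the authors' deposited table was 0.992.

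A list of 8 genes held other NF-kB and IkB family members with regulators that act on NF-kB subunits, such as Pdlim2, Commd1 and Nkrf. None of the 8 was called, against 1.05% of all tested rows. Rel, the c-Rel subunit best known from lymphocytes, stood at 4.02 FPKM in both groups. Bcl3, an atypical IkB protein that can activate transcription with NF-kB homodimers, stood at 21.2 FPKM in KO cells and 18.7 FPKM in WT cells. Nfkbiz, an atypical IkB protein of the nucleus, stood at 22.7 FPKM in KO cells and 19.8 FPKM in WT cells. The median log2 ratio of this mixed list was 0.17, but only Pdlim2 had an unadjusted p under 0.05 in the authors' deposited table.

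Other negative regulators were not called in 14 of 14 cases, where 1.05% of all tested rows were called. Tnip3, an A20-binding inhibitor, stood at 16.2 FPKM in KO cells and 20.9 FPKM in WT cells, with p = 0.0014 and q = 0.105 in the authors' deposited table, and was named after its values were seen. It was thus lower by a log2 ratio of −0.35, a size close to that of Tnfaip3. Its relative Tnip1 stood at 45.3 FPKM in KO cells and 50.5 FPKM in WT cells. The row of Cyld with the longest locus stood at 0.964 FPKM in KO cells and 0.786 FPKM in WT cells, but another row of this deubiquitinase gene was much higher, at 33.2 FPKM in KO cells and 34.2 FPKM in WT cells.

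Genes widely described as NF-kB targets held most of the calls, and these went mainly down. Of 25 measured, 6 fell and 1 rose, against 0.556% and 0.491% of all tested rows. The other 18 did not pass, and the median log2 ratio was −0.18. Ccl2, the monocyte chemokine, was 2.05-fold lower at 145 FPKM in KO cells, against 297 FPKM in WT cells, in the authors' deposited table (q = 0.00756). Ccl7, Csf1, Csf2, C3 and Cxcl2, whose row also covers Cxcl3, were the other genes that fell, by 1.37-fold (Csf1) to 3.22-fold (Csf2) in the authors' deposited table. They code for chemokines, colony-stimulating factors and a complement protein. Csf2 was low, at 0.706 FPKM in KO cells and 2.27 FPKM in WT cells. Ccl7 stood at 1.97 FPKM in KO cells and 4.51 FPKM in WT cells. Both averaged under 5 FPKM, so neither was among the rows of the 5 FPKM setting. Tgm2, transglutaminase 2, rose to 352 FPKM in KO cells, against 179 FPKM in WT cells, and lies in the same part of chromosome 3 as Rbck1.

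The other 18 targets did not pass, and over all 25 measured 8 were higher and 17 lower in KO cells. Icam1, an adhesion molecule, stood at 29.1 FPKM in KO cells and 28.8 FPKM in WT cells. Sod2, the mitochondrial superoxide dismutase, stood at 88.8 FPKM in KO cells and 93.6 FPKM in WT cells in its row of longest locus. A Sod2 row of 120 bp stood at 91.6 FPKM in KO cells and 107 FPKM in WT cells and was not called either. Cxcl1, a neutrophil chemokine, stood at 11.7 FPKM in KO cells and 16.7 FPKM in WT cells; its q was 0.997 in the authors' deposited table, and its row is listed with the same locus as that of Cxcl2. Ptgs2 had no tested row under its symbol. Of 34 listed target genes, 24 had a RefSeq promoter, and 10 of these held a kB match in the 300-base window, against 4.18% of all promoters. Cxcl2 was the only called target among the 10, which also held Cxcl1 and Cxcl10, neither of them called. Target genes without a RefSeq promoter were not searched.

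**Figure D4:**
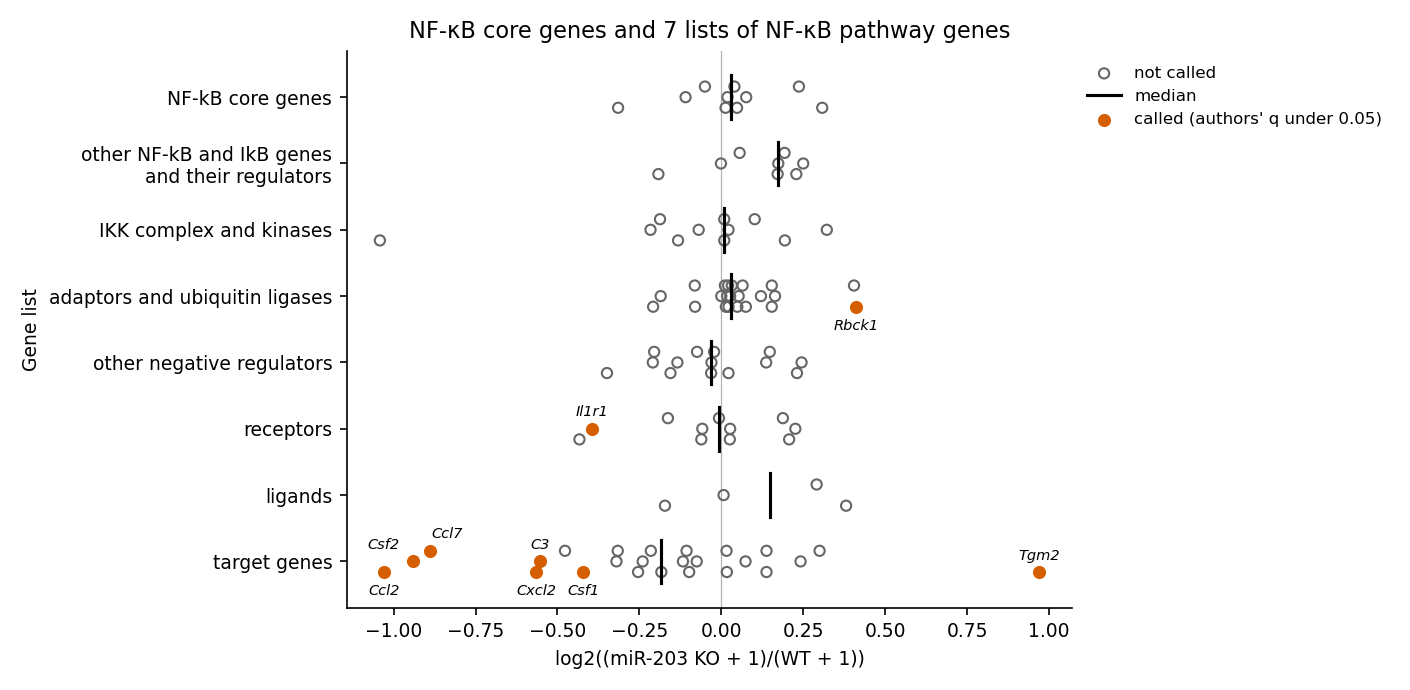
Ratio of miR-203 KO to WT, as log2((KO + 1)/(WT + 1)), for the 10 core genes and 7 lists of pathway genes, with 1 circle per gene, filled where the authors' q was under 0.05, and a bar at each median. The 10 core genes hold no filled circle, while the target genes hold 7, of which Tgm2 (0.97) is the only one to the right.

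The labelled cell type was checked against marker genes. Of 10 epithelial markers 9 were measured, between 19 and 460 FPKM in mean level, and none was called. Of 11 leukocyte markers, 3 had a tested row (Cd14, Cd79a and Csf1r), summing to 30.3 FPKM in KO cells and 39.7 FPKM in WT cells, of which Csf1r was called lower in the authors' deposited table at 0.2004 FPKM in KO cells and 0.791 FPKM in WT cells. Most of that sum was Cd79a, a B cell receptor component, at 23.9 FPKM in KO cells and 31.7 FPKM in WT cells, with p = 0.00785 and q = 0.346 in the authors' deposited table. That is above the lowest epithelial marker, Ocln, at 19.2 FPKM in KO cells and 18.7 FPKM in WT cells. The pan-leukocyte marker Ptprc had no tested row under its symbol. Of 9 fibroblast markers, Col1a1 alone had a row, at 1.17 FPKM in KO cells and 1.43 FPKM in WT cells, and none of 7 endothelial markers had one. The part of these markers in the values above was not tested.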

How the data were processed

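RNA-seq libraries of 3 miR-203 KO and 3 WT samples were strand-specific, per the labels' protocols. Reads were processed, per the submitters' processing notes, with Cuffdiff 2.2.1.3, Cufflinks 2.2.1 and TopHat (listed with version 0.9) on build rn6; annotation and settings: not given in the sources used here. Per the file headers, the deposited table gives 1 FPKM value per group, the log2 fold of KO over WT, a test statistic (a score), a p-value and a q-value. Its decimal commas were read as points. Of 26751 rows, 26459 were tested by the authors. Benjamini-Hochberg adjustment of the deposited p-values over these rows gave the deposited q to within 5.1e-07.

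No further test was run: calls are the authors' q under 0.05. Ties between rows of equal locus were broken by mean level, a choice made after seeing the data. Log2 ratios used a pseudocount of 1, which understates changes of low genes. Of the pathway lists, called genes were named (at most 6 per list, by smallest p), and a fixed set of other genes whether called or not; Pdlim2, Commd1, Nkrf, Rnf31, Sharpin, Tnip3, Il1rn, Cxcl10, Slc7a1, Tab1, Ube2n, Csf1 (the next of 7 called targets) and the individual cell type markers were named after their values were seen. The members, the lists and the chromosome 3 boundary were chosen with earlier results of these data known. Likeness of pattern could not be measured with 1 value per group. Promoters and microRNAs are RefSeq sequences (GRCr8) matched by symbol, and no coordinate was converted between builds. Adjustment and motif search were tested on simulated data. Python 3.11.15, pandas 2.3.3, NumPy 2.4.6 and matplotlib 3.10.9 were used.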

Additional observations from a re-analysis of the deposited data

How the results depend on the processing

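The count of called core genes was 0 under each of the 5 alternatives run. With q recomputed over rows averaging 1 FPKM or more, or 5 FPKM or more, it could have changed. At q under 0.01, or at q under 0.05 with a fold of at least 1.5, it could only be 0. The row with the highest mean was the main row for all 10 genes, so that setting was no separate check. The smallest recomputed q among them, that of Nfkbia, was 0.218 over rows of 1 FPKM or more and 0.213 over rows of 5 FPKM or more. Over the 7 pathway lists the 2 higher and 7 lower calls became 1 and 4 at q under 0.01, and 1 and 3 where a fold of at least 1.5 was also required. They became 2 and 5 with q recomputed over rows averaging 5 FPKM or more, and stayed 2 and 7 under the other settings. The median log2 ratio of the core genes became −0.13 when each group was divided by its sum of FPKM. The median of rows averaging 5 FPKM or more became −0.16 there. Under the other 7 alternatives the core median was within 0.1 of 0.03. Among them, the highest-mean row and the limit of 5 FPKM kept the same 10 rows, so they could not move it. The deposited fold and a pseudocount of 0 gave the same median, 0.031. Summing all rows of a symbol, and the fold and highest-row settings for the lists, were chosen after seeing the data. No paired analysis was possible because each group has only 1 pooled value, and for the same reason leaving out each replicate and the replicate block were not run. Read depth is unknown, so no counting interval was given.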
